A study of Phaseolus vulgaris with 21 samples.

Results

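LOC547648 and LOC100814291 are transcripts of haloacid dehalogenase-like (HAD) hydrolases with high levels in the floral nectary of common bean (Phaseolus vulgaris). They were found as the rows of the deposited table whose description holds one of these symbols, which gave 2 genes of 6359 in all, with 1 row each. They were chosen by their values, which are high in floral nectary and low in vegetative tissue, so that difference is described here without a test. The table pairs LOC547648 (NM_001248940.1) with the Arabidopsis locus AT2G32150. It pairs LOC100814291 (NM_001254463.2) with AT5G59480 and AT3G62040, all 3 annotated as HAD superfamily proteins. The accessions are soybean transcripts on which bean reads were counted, so close copies may share reads, and each name stands for the soybean transcript that bean reads matched.

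The study profiled 7 tissues of the cultivar Blue Lake 274 with 3 libraries each, all from plants under 16 h of light and 8 h of dark at 23 °C. Leaf, the extrafloral nectaries (EFN) at the base of terminal trifoliate leaves (leaf EFN) and those found on stems, by the base of lateral trifoliate leaves (stem EFN), are the vegetative tissues. Floral nectaries were taken 24 h before anthesis (pre1), 12 h before it (pre2), at full anthesis 3 h after dawn (the secretory stage) and 12 h after that (post). Neighbouring floral stages also lay at different times of day, as did post and pre1, so stage and time of day cannot be told apart between them. By these hours, pre1 and the secretory stage lay at about the same time of day, as did pre2 and post, but on different days. Nectaries were dissected by hand, and the labels do not mention separate plants, so p-values measure only the spread between these libraries, which may be technical.

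HAD proteins are named after a bacterial enzyme that removes halogens from small acids, but most of them are phosphatases. They use an aspartate to attack the phosphate, which is held for a moment on the protein before water releases it. The superfamily is large and its substrates range from sugar phosphates to proteins; the ion pumps of the P type share the same catalytic fold. Floral nectaries import sugar, store part of it as starch and release it as nectar when the flower opens. Both transcripts are described as uncharacterized in the table, so no substrate can be given for either. The sequences of these soybean transcripts were not used here.

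The deposited values are read counts, labelled by the authors as normalized to the upper quartile and given as whole numbers. Over the deposited rows the upper quartiles were not equal. Rescaling to equal ones moved the median log2 difference of floral nectary from leaf from 0.375 to -0.0226. The main fit used the values as deposited. These values summed to 2616502 to 4270943 per library. Judged by the steps between the lowest values, 1 read was worth an estimated 0.794 to 1.322 units, so the single-digit values of leaf likely rest on a few reads. Leaf libraries 1 and 3 and some others had the estimate 0.992, which the method also returns where it finds no steps. Only library 1 of the secretory stage held no value of 0, so the table appears filtered on it. Transcripts found only in vegetative tissue would then be missing, which limits every share of all rows given for floral nectary against vegetative tissue. Of 12 rows that mark photosynthetic cells, the summed value was 284 to 716 in floral libraries, 21300 to 95673 in the EFN and 126824 to 375537 in leaf. Of 7 rows that mark floral nectary, the sum was 40346 to 227244 in floral libraries and 1028 to 2420 in the others. The CRABS CLAW match LOC100500026, a defining nectary regulator, was at 0 in all 9 vegetative libraries. Carpel and ovule markers (5 rows) summed to 3202 to 8861 in floral libraries and 138 to 457 elsewhere, and no row matched the pollen and anther list. Fewer cells of a type and less RNA per cell cannot be told apart in such pieces of tissue.

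LOC547648 was found at 5487 units or more in every floral library and at 0 to 349 in every vegetative one. The 3 libraries of pre1 held 5487, 10809 and 13285, those of pre2 20535, 25125 and 24629, those of the secretory stage 13086, 14170 and 15866, and those of post 8429, 9016 and 8454. All pre2 libraries lay above all other floral libraries, and pre1 had the widest spread. Leaf held 9, 3 and 0, leaf EFN 107, 65 and 34, and stem EFN 197, 83 and 349. The order of means was pre2 (23430 ± 2519, SD, n = 3), secretory (14374 ± 1401), pre1 (9860.3 ± 3985), post (8633 ± 332), stem EFN (209.7 ± 133), leaf EFN (68.7 ± 36.6) and leaf (4 ± 4.58). The secretory stage overlapped pre1, pre1 overlapped post, and stem EFN overlapped leaf EFN, while the other neighbours in that order were apart.

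LOC100814291 had the same split between floral and vegetative libraries and the same peak stage. Pre1 held 8345, 16552 and 18256, pre2 34579, 35060 and 29557, the secretory stage 28985, 27068 and 27618, and post 24268, 16055 and 14355. Every pre2 library lay above every secretory one, although only narrowly, and every secretory library lay above all of post and pre1. Leaf held 8, 38 and 2, leaf EFN 97, 60 and 18, and stem EFN 19, 56 and 41, so the 3 vegetative tissues overlapped each other. The order of means was pre2 (33065 ± 3048, SD, n = 3), secretory (27890.3 ± 987), post (18226 ± 5301), pre1 (14384 ± 5299), leaf EFN (58.3 ± 39.5), stem EFN (38.7 ± 18.6) and leaf (16 ± 19.3). Post and pre1 overlapped, as did each neighbour among the vegetative tissues.

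**Figure D1:**
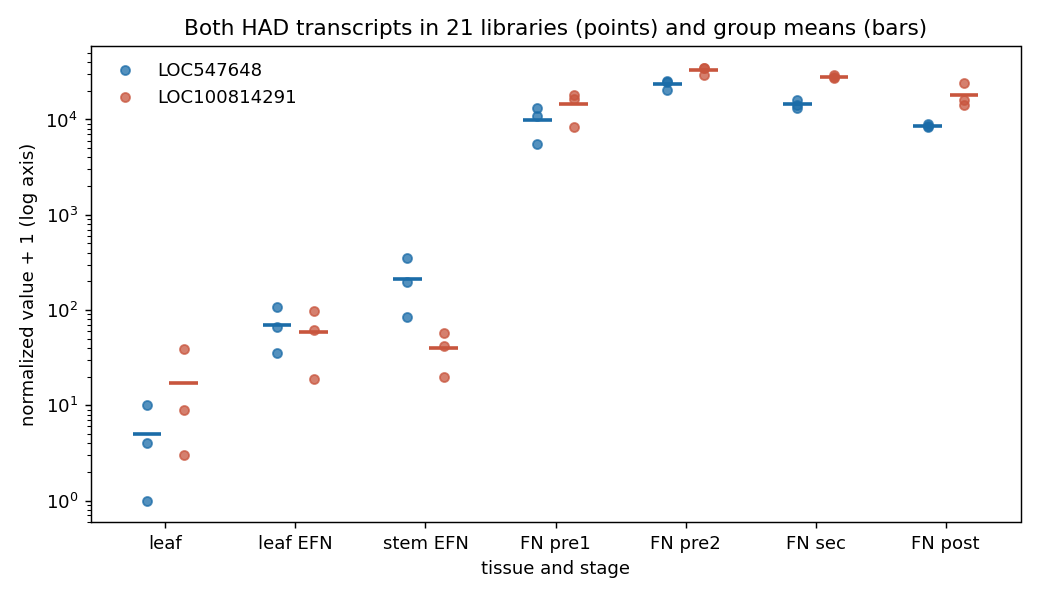
Normalized value + 1 (log axis) of LOC547648 and LOC100814291 in each of 21 libraries by tissue and stage; points are libraries and bars are means of 3. Floral libraries lie at 5487 and above for LOC547648 and at 8345 and above for LOC100814291, and vegetative libraries at 349 and 97 or below.

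The gap between floral and vegetative libraries was wide for both transcripts. The lowest floral library of LOC547648 was 15.7 times its highest vegetative library, and that of LOC100814291 86.0 times. The mean over 12 floral libraries of LOC547648, 14074, was 67.1 times that of stem EFN and 205 times that of leaf EFN. For LOC100814291 the floral mean, 23392, was 401 times that of leaf EFN and 605 times that of stem EFN. On the scale of log2(value + 1), with the 4 stages weighted equally, the floral stages stood above leaf by 11.87 for LOC547648 and 11.06 for LOC100814291. These folds describe how the transcripts were picked. In the table, 1166 of 6359 rows had all 12 floral libraries above all 9 vegetative ones. Of 6351 rows tested, 75.8% were called between floral nectary and leaf, 48.0% higher and 27.8% lower. That made 63.4% of the called rows higher, against 49.2% when libraries were rescaled to equal upper quartiles and 53.8% with median-ratio scaling.

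Before the flower opened, the means of both transcripts at pre2 stood above those at pre1, with no overlap between the libraries. A two-sided exact permutation test of 3 libraries against 3 cannot go below p = 0.1. Lack of overlap alone is therefore weak evidence, here and below, and its share among all rows was not counted. At pre2, LOC547648 made up 0.554% ± 0.0641 of the summed values of a library (SD, n = 3), against 0.250% ± 0.0829 at pre1, 0.390% ± 0.0342 at the secretory stage and 0.234% ± 0.0151 at post. LOC100814291 made up 0.782% ± 0.0722 at pre2 and 0.366% ± 0.108 at pre1, with 0.757% ± 0.0248 and 0.490% ± 0.12 in the later stages. The fold of means was 2.38 for LOC547648 and 2.30 for LOC100814291. Fitted over all 21 libraries with limma, the log2 difference was 1.34 (SE 0.601, adjusted p = 0.125) for LOC547648 and 1.28 (SE 0.661, adjusted p = 0.182) for LOC100814291, so neither passed an adjusted p of 0.05. The unadjusted 95% intervals ran from 0.08 to 2.60 and from -0.11 to 2.66. Of all rows, 19.5% were called between these stages, 12.4% higher and 7.05% lower at pre2. Higher calls were 63.8% of all calls, against 50.2% with equal upper quartiles and 60.2% with median-ratio scaling. A larger rise was fitted for 5.81% of rows in the case of LOC547648 and for 6.30% in that of LOC100814291.

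These standard errors depend on which libraries are pooled. On the log2 scale, the spread within groups was 0.351 over floral groups and 1.23 over vegetative groups for LOC547648, and 0.374 and 1.36 for LOC100814291; the median row had 0.261 and 0.355. The fit over 21 libraries pools both, and without leaf library 3 it gave LOC547648 an adjusted p of 0.0454. In a fit to the 12 floral libraries alone, chosen after seeing the data, both transcripts were called higher at pre2 than at pre1. The adjusted p was 0.00341 (SE 0.274) for LOC547648 and 0.00765 (SE 0.302) for LOC100814291, where 30.2% of rows were called. An exact permutation test over the 12 floral libraries, also added after seeing the data, asked whether a transcript varied among the 4 stages at all. Stages held 80.1% of the log2 variation of LOC547648 (exact permutation p = 0.00312) and 73.5% of that of LOC100814291 (exact permutation p = 0.00721). The limma test for any difference among the 4 stages in the fit to 21 libraries gave adjusted p = 0.14 and 0.289, and 57.0% of rows were called by it.

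From pre2 to the secretory stage, when nectar is released, LOC547648 went from a mean of 23430 to 14374 and LOC100814291 from 33065 to 27890.3. The log2 differences were -0.70 (SE 0.601, limma adjusted p = 0.447) and -0.24 (SE 0.661, adjusted p = 0.832), and 21.4% of all rows were called, 12.6% higher and 8.77% lower. Libraries of the stages did not overlap for either transcript, a pattern whose share among all rows was not counted. The 95% interval of the difference ran from -1.96 to 0.56 for LOC547648 and from -1.62 to 1.14 for LOC100814291. In the fit to floral libraries alone the adjusted p was 0.0694 and 0.577, where 30.0% of rows were called. In the authors' deposited table, LOC547648 is called as differing between pre2 and the secretory stage and LOC100814291 is not; that table calls 29.9% of rows there.

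After secretion the means were 8633 for LOC547648 and 18226 for LOC100814291, and all post libraries lay below all secretory ones for both. The log2 difference from the secretory stage was -0.73 (SE 0.601, limma adjusted p = 0.586) for LOC547648 and -0.65 (SE 0.661, adjusted p = 0.682) for LOC100814291, while 5.73% of rows were called, 2.63% higher and 3.10% lower. The intervals ran from -1.99 to 0.53 and from -2.03 to 0.73. In the floral fit these were at adjusted p = 0.111 and 0.196, where 10.3% of rows were called. The authors' deposited table calls both transcripts between the secretory stage and post, where it calls 9.86% of rows, and both between pre1 and pre2, where it calls 18.9%.

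Stages further apart were compared in the same fits. From pre2 to post, LOC547648 had a log2 difference of -1.44 (SE 0.601, limma adjusted p = 0.067), against a background of 38.2% of rows called (18.1% higher, 20.1% lower), and in the floral fit its adjusted p was 0.000949. In the fit over all groups it was 0.0292 without leaf library 1 and 0.0184 without leaf library 3. From pre2 to post, LOC100814291 stood at -0.89 (SE 0.661, adjusted p = 0.301; 0.0267 in the floral fit), where 48.7% of rows were called in the floral fit. Between pre1 and the secretory stage, LOC100814291 had a difference of 1.03 (SE 0.661, limma adjusted p = 0.212; 0.0114 in the floral fit) with no overlap of libraries. LOC547648 had 0.63 (SE 0.601, adjusted p = 0.406; 0.0671 in the floral fit) with overlap. Without pre1 library 1, the lowest of its stage, this difference was 0.258 for LOC547648 and 0.681 for LOC100814291. Of all rows, 45.9% were called (25.2% higher, 20.7% lower), and 53.8% in the floral fit. Post and pre1 differed by -0.10 for LOC547648 and 0.38 for LOC100814291 (adjusted p = 0.904 and 0.654), with 52.4% of rows called (25.9% higher, 26.5% lower) and 60.7% in the floral fit. The interval of that difference ran from -1.36 to 1.16 for LOC547648, and its upper end was 1.77 for LOC100814291. Leaving out 1 library moved post minus pre1 between -0.47 and 0.16 for LOC547648, with the lowest value without pre1 library 1. For LOC100814291 it moved between 0.03 (without pre1 library 1) and 0.59 (without pre1 library 3), and it was 0.16 without post library 1.

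**Figure D2:**
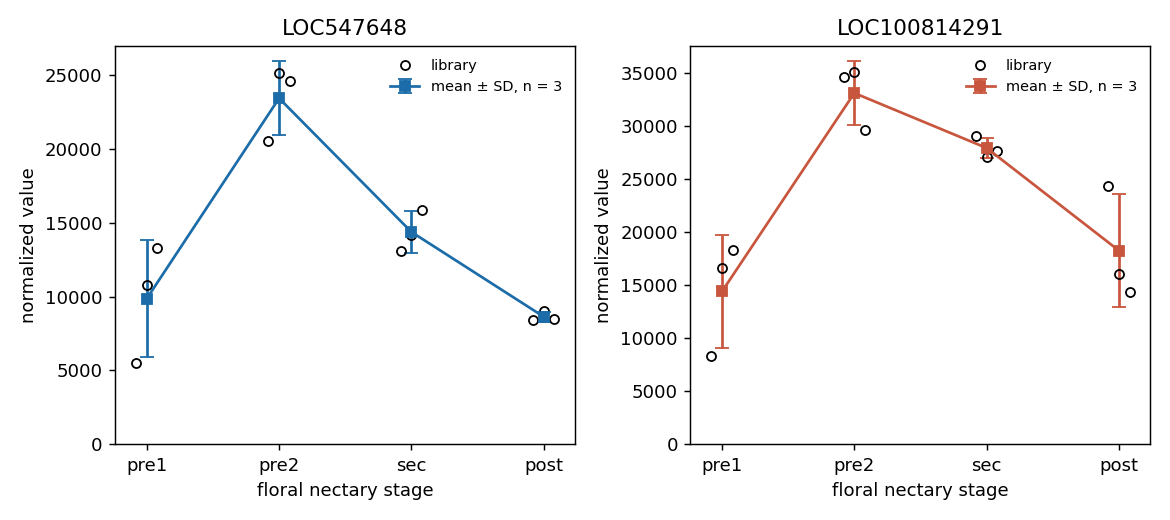
Normalized value of each transcript at the 4 floral nectary stages on a linear axis from 0; open circles are libraries, and squares with bars are mean ± SD of 3. LOC547648 peaks at pre2 with 23430 and ends at 8633, and LOC100814291 peaks at pre2 with 33065 and stays at 27890.3 in the secretory stage.

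Libraries within a stage also differed, and not always for both transcripts. Library 1 of pre1 was the lowest of its stage for LOC547648 (5487) and for LOC100814291 (8345), and its summed floral nectary markers were 96201 against 168586 and 194670 in the others. The sum leans on abundant rows such as the SWEET13-like LOC100810946 (28795, 77194 and 105664 in pre1 libraries 1, 2 and 3). The CRABS CLAW match LOC100500026 went the other way (8113, 6811 and 4789), while every other row of that list was lowest in library 1. Library 1 of post was the highest for LOC100814291 (24268), and its floral nectary markers were 123275 against 65240 and 40346. LOC547648, in contrast, lay between 8429 and 9016 in all 3 post libraries. The part of the marker levels in the stage differences was not tested.

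The log2 difference between the transcripts (LOC547648 minus LOC100814291) shows how far they moved apart across tissues; its zero point has no meaning, because it is not corrected for transcript length. Its mean was -0.56 ± 0.0874 at pre1, -0.50 ± 0.245 at pre2, -0.96 ± 0.175 at the secretory stage and -1.04 ± 0.421 at post (SD, n = 3). All 6 libraries of the secretory and post stages lay below all 6 of pre1 and pre2, the nearest being -0.76 at post and -0.75 at pre2. Stages held 55.3% of the variation of this difference, with p = 0.0672 in an exact permutation test over the 12 floral libraries. Without post library 1, whose difference was -1.53, the share was 67.0% (exact permutation p = 0.034), and leaving out each of the other 11 floral libraries gave exact p from 0.0517 to 0.133. In leaf EFN the difference was 0.38 ± 0.436 and in stem EFN 2.31 ± 1.52, where libraries 1, 2 and 3 held 3.31, 0.56 and 3.06. The leaf values, -1.57 ± 1.72, likely rest on a few reads per library for LOC547648.

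**Figure D3:**
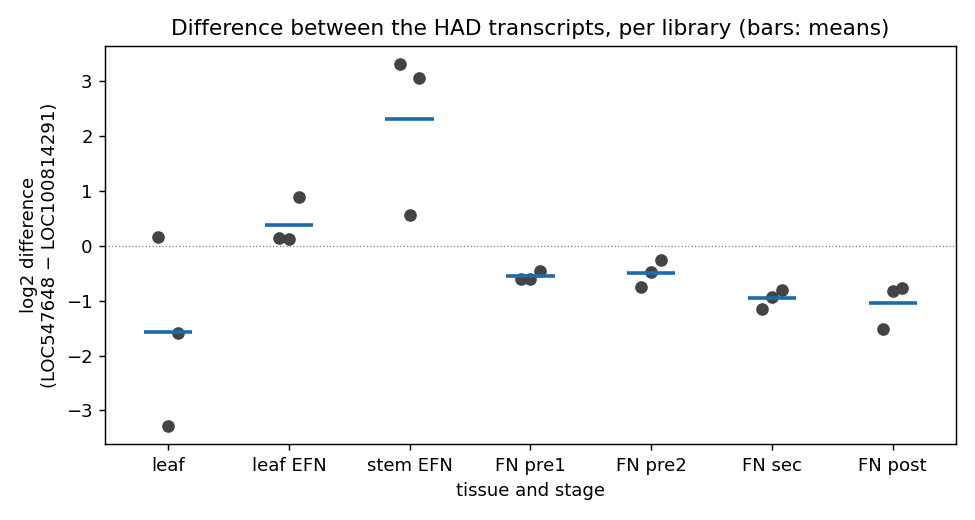
Log2 difference between LOC547648 and LOC100814291 (value + 1) per library by tissue and stage; points are libraries, bars are means of 3 and the dotted line is 0. The secretory and post libraries, from -1.53 to -0.76, lie below the pre1 and pre2 libraries, and stem EFN spreads from 0.56 to 3.31.

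Extrafloral nectaries secrete nectar outside the flower, and reads of both transcripts were counted there at low levels. LOC547648 rose in both EFN against leaf, with means of 68.7 in leaf EFN and 209.7 in stem EFN against 4 in leaf, with no overlap of libraries. The log2 difference was 4.20 for leaf EFN (SE 0.601, limma adjusted p = 1.74e-05) and 5.72 for stem EFN (SE 0.601, adjusted p = 1.11e-06). Of all rows, 46.9% were called in leaf EFN (28.4% higher, 18.5% lower) and 34.8% in stem EFN (22.3% higher, 12.5% lower), and 1.07% and 0.142% had a larger fitted rise. In stem EFN higher calls were 64.1% of all calls, against 51.6% with median-ratio scaling and 53.6% with equal upper quartiles. The transcripts were picked as low in vegetative tissue, which includes leaf and both EFN, so their levels there are not independent of the choice. Both differences of LOC547648 rest on leaf values of 9, 3 and 0, which are likely a few reads. The contrasts with leaf share the same 3 leaf libraries.

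LOC100814291 was called higher in leaf EFN than in leaf, by a log2 difference of 2.25 (SE 0.661, adjusted p = 0.00917), and in stem EFN by 1.84 (SE 0.661, adjusted p = 0.0377). The libraries overlapped in both cases, with leaf library 2 at 38. Without leaf library 3, which held 2, the adjusted p was 0.0719 in leaf EFN and 0.234 in stem EFN, and without leaf EFN library 1 it was 0.0593 in leaf EFN. The stem EFN call was also lost without stem EFN library 2 (0.136), stem EFN library 3 (0.101) or leaf library 1 (0.0944). In a fit to the 9 vegetative libraries alone, LOC547648 was still called (adjusted p = 0.00161 and 0.000551) and LOC100814291 was not (0.0579 and 0.141); 35.7% and 23.7% of rows were called there.

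Stem and leaf EFN did not differ at the threshold for either transcript. LOC547648 had a log2 difference of 1.51 toward stem EFN (SE 0.601, limma adjusted p = 0.169, interval from 0.26 to 2.77 before adjustment), and LOC100814291 -0.42 (SE 0.661, adjusted p = 0.787, interval from -1.80 to 0.97). Of all rows, 5.37% were called (2.80% higher, 2.57% lower), and 0.721% in the fit to vegetative libraries alone. Stem EFN libraries 2 and 3 held low values of floral regulators: MYB305-like LOC100816972 was at 1, 13 and 21 in libraries 1, 2 and 3. As a share of the floral mean, the stem EFN mean was 0.167% for LOC100816972, 0.187% for MYB98, 0.109% for MYB182 and 0% for LOC100500026. It was 0.165% for LOC100814291 and 1.49% for LOC547648. In leaf EFN, LOC100816972 held 0.0191% and LOC100814291 0.249%. The part of floral material in the EFN values was not tested. LOC547648 was at 197 in stem EFN library 1, between its values in the other stem EFN libraries. With libraries 2 and 3 left out, the log2 difference of LOC547648 from leaf was 5.86 (SE 0.799, limma adjusted p = 0.000103), on 1 stem EFN library assumed to vary like the other groups. That of LOC100814291 was 0.98 (adjusted p = 0.57).

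The rows most like each transcript were sought by Pearson correlation of log2(value + 1), among 4021 rows with a floral mean of at least 100. Over all 21 libraries LOC547648 was closest to the xyloglucan endotransglucosylase LOC100807063, a wall-loosening enzyme (r = 0.979), and to the inositol polyphosphate 5-phosphatase 9-like LOC100817707 (r = 0.975). The MADS-box factor LOC100805092 (r = 0.975), the peroxisomal thiolase LOC100807194 (r = 0.972) and the SEPALLATA 1-like LOC100788427 (r = 0.97) followed. LOC100814291 was closest to the LIMR family row LOC100816750 (r = 0.991) and to NMH7 (r = 0.991), a MADS-box gene matched to the Arabidopsis petal and stamen regulator APETALA3. LOC100805092 (r = 0.99), LOC100794974, matched to the carpel regulator SPATULA (r = 0.988), and LOC100500120 (r = 0.986) came next. All points share the contrast of floral with vegetative libraries, and the median row had r = 0.511 and 0.525. The transcripts correlated with each other at r = 0.959, which placed LOC100814291 at rank 22 for LOC547648, and LOC547648 at rank 153 for LOC100814291.

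Within the 12 floral libraries, none of the 5 nearest rows of either transcript was among its 5 over all libraries. LOC547648 was most like the transcription factor MYB75 (r = 0.97), the helicase-like LOC100809811 (r = 0.955), LOC100810365 (r = 0.945), the auxin-responsive IAA13-like LOC100813788 (r = 0.945) and LOC100305572 (r = 0.943). LOC100814291 was most like LOC100820215 (r = 0.987), glycerol kinase GK (r = 0.978), the glucan endo-1,3-beta-glucosidase LOC100789503 (r = 0.973), LOC100527048 (r = 0.971) and the cyclic dof factor LOC778113 (r = 0.97). Here the transcripts correlated with each other at 0.868, and the median row at 0.112 and 0.123. These are descriptions over libraries that share stage and depth.

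The rest of the superfamily was mixed in direction, as were all rows. The table held 30 further HAD rows, found by their Arabidopsis match or by annotation text. Against leaf, 15 were called higher and 10 lower in floral nectary, where 75.8% of all rows were called (48.0% higher, 27.8% lower). The median log2 difference was 0.44, against 0.38 over all rows. From pre1 to pre2, the means of LOC547648 and LOC100814291 stood at 2.38 and 2.30 times the earlier ones. At that step 6 of the 30 were called higher and 4 lower, where 19.5% of all rows were called (12.4% higher, 7.05% lower). From pre2 to the secretory stage 4 were called higher and 4 lower (of all rows 21.4%, 12.6% higher and 8.77% lower). From there to post it was 2 and 2 (of all rows 5.73%, 2.63% higher and 3.10% lower). The median log2 differences of these steps were -0.05, -0.15 and 0.02, against 0.02, -0.01 and -0.05 over all rows. In leaf EFN 8 of the 30 were called higher and 8 lower than in leaf, where 46.9% of all rows were called (28.4% higher, 18.5% lower). In stem EFN it was 4 and 6, where 34.8% of all rows were called (22.3% higher, 12.5% lower).

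Rows near LOC547648 and LOC100814291 by annotation had other stage values. LOC100777400, matched to AT5G02230, held 102, 106 and 222 at pre1, 938, 1045 and 1144 at pre2, 8859, 10056 and 6271 at the secretory stage and 3536, 3897 and 3941 at post. Where LOC547648 and LOC100814291 had their highest floral values at pre2, LOC100777400 had them at the secretory stage, and it was at 814 to 1563 in leaf. It rose by a log2 difference of 2.95 to pre2 (SE 0.312, limma adjusted p = 5.25e-06) and by 2.99 more to the secretory stage (SE 0.312, adjusted p = 1.81e-06). It then fell by 1.12 (SE 0.312, adjusted p = 0.0399), which no longer passed without leaf EFN library 2, pre2 library 2 or 3, secretory library 1 or 2, or any post library (up to 0.163). The second row matched to AT5G02230, LOC100795391, rose from 161, 116 and 195 at pre1 to 267, 434 and 412 at pre2 (log2 difference 1.23, SE 0.402, adjusted p = 0.0374). That call was lost with equal upper quartiles and without pre1 library 1 or 2 or pre2 library 2 or 3 (up to 0.135). LOC100786323 shares the match AT3G62040 with LOC100814291 and was named for that after its values were seen. It held 177, 228 and 155 at pre2 and 118, 144 and 15 in leaf.

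Of 34 HAD calls picked by fold, 22 held under every alternative and 12 were lost under at least 1. Among those that held, the storage-type acid phosphatase LOC100795218, matched to Arabidopsis VSP2, was at 0 in leaf and at 13269, 4094 and 4378 at pre1 (limma adjusted p = 3.13e-10 for floral nectary against leaf). Only that call of LOC100795218 held, while its calls at pre2 against pre1 and in leaf EFN against leaf were among the 12 lost. The 31 kDa protein LOC547820 was also at 0 in leaf, with 2128, 1188 and 39 in leaf EFN (adjusted p = 0.000129) and 45, 165 and 17904 in stem EFN (adjusted p = 0.000218). The acid phosphatase 1-like LOC100781343 went from 0, 9 and 3 in leaf to 448, 571 and 550 at pre2 (floral nectary against leaf 6.73, SE 0.512, adjusted p = 4.49e-10).

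Among the rows called lower in floral nectary than in leaf, LOC100798113, a phosphoglycolate phosphatase of photorespiration, stood at a log2 difference of -3.23 (SE 0.169, limma adjusted p = 1.66e-12). LOC100781497, matched to a sucrose-phosphatase, stood at -5.17 (SE 0.437, adjusted p = 2.08e-09). The summed photosynthetic markers given above move with these rows, and their part was not tested. Within floral stages, LOC100306469, matched to a pyrophosphatase that phosphate shortage induces in Arabidopsis (AT1G73010), rose from 9, 15 and 10 at pre2 to 129, 103 and 180 at the secretory stage (3.48, SE 0.533, adjusted p = 0.000122). The calcium pump LOC100793918 rose from 295, 261 and 373 at the secretory stage to 1544, 2926 and 3407 at post (3.02, SE 0.484, adjusted p = 0.00091).

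**Figure D4:**
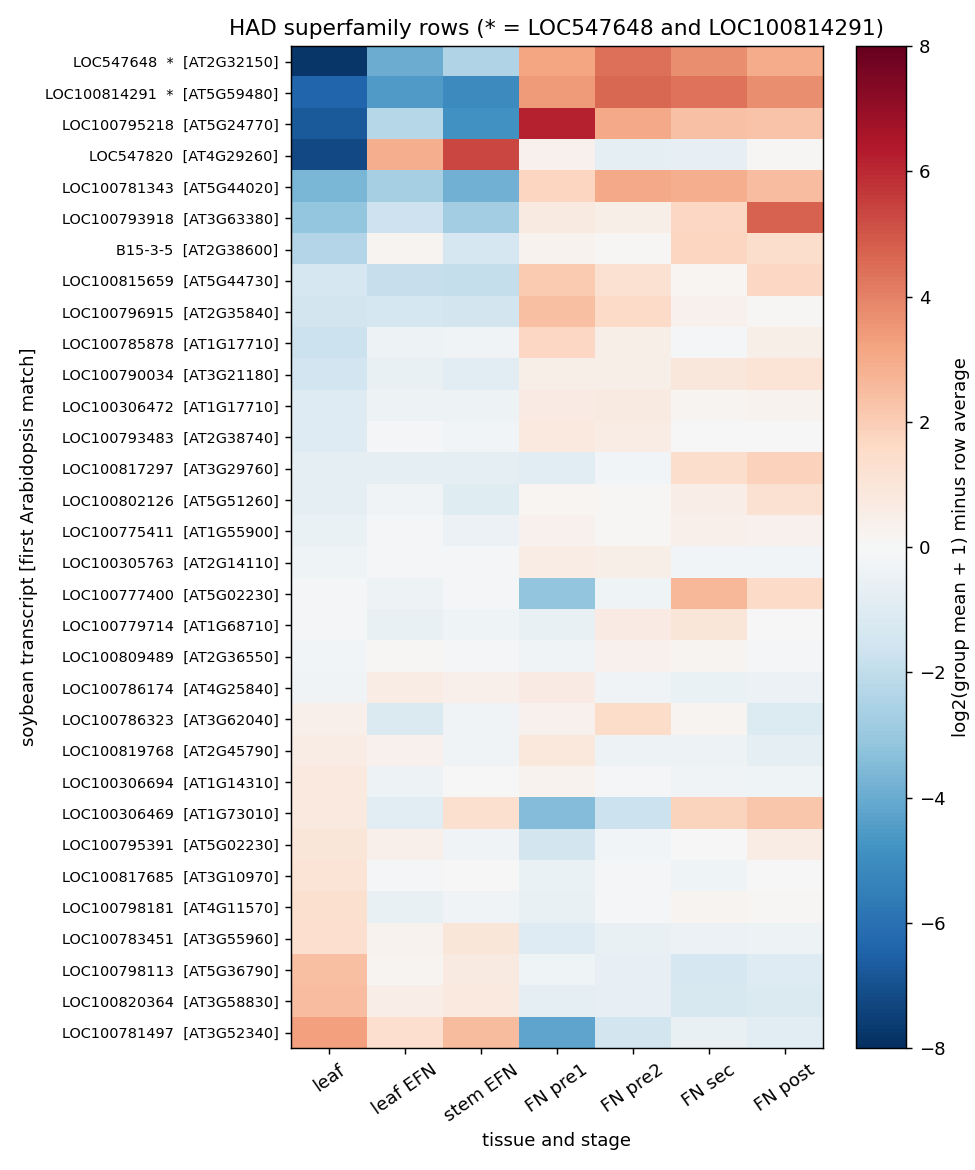
Each row is a HAD superfamily transcript with its first Arabidopsis match, each column a tissue or stage, and colour is log2(group mean + 1) minus the average of the row. LOC547648 and LOC100814291 (marked *) are low in the 3 vegetative tissues and high in all 4 floral stages, while LOC100777400 is highest at the secretory stage and LOC100795218 at pre1.

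Phosphatases can act on nucleotides or in the recycling of phosphate, so rows of these pathways were listed beside LOC547648 and LOC100814291. Of 16 rows for nucleotide breakdown and salvage, 5 were called between pre1 and pre2 (2 higher, 3 lower), 6 between pre2 and the secretory stage (4 higher, 2 lower) and 1 higher at post. Of all rows, 19.5%, 21.4% and 5.73% were called at these steps. Over the 4 stages 15 of 16 were called, where 57.0% of all rows were. The smallest adjusted p over the stages belonged to nucleases: the endonucleases EN1 (5.51e-11), EN2 (2.2e-07) and LOC100775291 (5.15e-07), and the ribonuclease match LOC100305644 (4.29e-09). EN1, matched to an Arabidopsis nuclease of senescence, held 3, 4 and 3 at pre1 and 4892, 8463 and 8210 at post. Libraries of pre1 and post overlapped for both LOC547648 and LOC100814291, and a link of either to EN1 was not tested.

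Of 13 rows for phosphate recycling, 1 was called higher at pre2, 5 at the secretory stage (3 higher, 2 lower) and 0 at post by limma (3 at an unadjusted p under 0.05), against the same shares of 19.5%, 21.4% and 5.73% of all rows. The row called at pre2 was LOC100306469, which is also among the HAD rows above, so the lists are not separate. That call was lost under at least 1 alternative. Over the 4 stages 9 of 13 were called, where 57.0% of all rows were, with the smallest adjusted p for LOC100306469 (3.22e-08), the purple acid phosphatase PAP3 (5.73e-07), PHR1 (4.49e-05) and the phosphate transporter LOC100803626 (5.71e-05). Of the HAD and pathway rows, LOC100781343 and the guanosine deaminase match LOC100500436 also had their highest mean at pre2 and a leaf mean under 5, as LOC547648 did. Both were singled out after their values were seen, and LOC100500436 held 489, 395 and 96 at pre2, which overlapped its 156, 211 and 436 at pre1.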

How the data were processed

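Per the labels' protocols, mRNA of 21 libraries was sequenced in paired 50 bp reads, and the table holds 1 row per soybean transcript. Per the file headers, the deposited values are counts normalized by the upper quartile; they are whole numbers scaled and rounded by the authors, so they were handled as scores and not as raw counts, and no count model was run. The submitters' processing notes name DESeq; which mapper and build were used is not given in the sources used here, and the authors' own means, SDs and calls were read only as the authors' values.

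Values were taken as log2(value + 1), and the 8 rows whose mean was under 1 were dropped, leaving 6351. The main test was limma 3.58.1 in R 4.3.3 with 7 group means over all 21 libraries, a mean-variance trend, 14 residual degrees of freedom and two-sided p-values. P-values were adjusted over all rows by Benjamini-Hochberg, with a threshold of 0.05. Intervals are 95% and unadjusted. Exact permutation tests of single values used the 12 floral libraries, with 1 test per transcript and 1 on their difference, unadjusted; with 3 libraries against 3, such a test cannot go below 0.1. The fit was checked on simulated data in which all groups of a row had the same spread. That check does not cover LOC547648 and LOC100814291, whose spread was larger in vegetative than in floral groups.

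The transcripts, gene lists and tests were chosen with earlier results of these data known. HAD rows were picked where they were the top 3 by fold in each direction among those called in a contrast, or matched AT5G02230. Of 34 such calls, the 12 lost under an alternative are given as a count, save those of LOC100777400, LOC100795218 and LOC100306469. From the calls that held, 7 rows stand for the rest. Pathway rows were the 4 with the smallest adjusted p over the floral stages. Similar rows were the 5 highest correlations. Fits to floral or vegetative libraries alone, the contrast of post with pre1, and the permutation test per transcript were added after seeing the data.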

Additional observations from a re-analysis of the deposited data

How the results depend on the processing

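Each contrast of LOC547648 and LOC100814291 was refitted under 33 alternatives. LOC547648 kept its calls in both EFN throughout, with log2 differences from 2.43 to 4.98 in leaf EFN (adjusted p up to 0.0145) and from 3.82 to 6.49 in stem EFN (up to 0.0213). The stage differences kept their direction, except that post minus pre1 of LOC547648 became 0.015 and 0.164 without pre1 library 2 or 3 (range on leaving out 1 library, -0.47 to 0.16). With a pseudocount of 10, LOC547648 was called at pre2 against pre1 (1.34, adjusted p = 0.0212), at post against pre2 (-1.43, 0.00701) and in stem against leaf EFN (1.39, 0.0465). With only the libraries compared, LOC547648 was called for pre2 (1.34, 0.0309), secretory against pre2 (-0.70, 0.00202), post against secretory (-0.73, 0.0238) and post against pre2 (-1.44, 0.000525). LOC100814291 was then called for pre2 against pre1 (1.28, 0.034), secretory against pre1 (1.03, 0.0246) and post against pre2 (-0.89, 0.0223). The floral fit made the same calls except those of adjacent later stages. Without library 3 of both EFN, LOC547648 was called at post against pre2 (-1.44, 0.0458). Leaving out 1 library gave ranges of 0.96 to 1.60 for pre2 minus pre1 and -1.53 to -1.38 for post minus pre2 of LOC547648, and of 0.26 to 0.90 for its secretory stage minus pre1. For LOC100814291 the ranges were 0.92 to 1.49 for pre2 minus pre1, 0.68 to 1.25 for the secretory stage minus pre1 and 0.03 to 0.59 for post minus pre1.

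LOC100814291 in leaf EFN lost its call with only the libraries compared (2.25, adjusted p = 0.144) and with vegetative libraries alone (0.0579), and leaving out 1 library gave 1.37 to 3.22. In stem EFN it lost it with a pseudocount of 10 (1.08, 0.0762), median ratios (1.73, 0.0524), only the libraries compared (1.84, 0.239), no trend (0.0508), vegetative libraries alone (0.141), without stem EFN libraries 2 and 3 (0.98, 0.57) and without library 3 of both EFN (1.73, 0.0699); leaving out 1 library gave 0.95 to 2.80. Its difference between the EFN, -0.42, turned to 0.093 and 0.015 without library 1 of leaf or stem EFN (range -1.09 to 0.09). The cause of these shifts was not tested.

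Of the other HAD rows, 18 were called at the secretory stage against pre2 with only the libraries compared (main 8; 5 to 9 on leaving out 1 library). In stem EFN, 4 were called with only the libraries compared, 4 without stem EFN libraries 2 and 3, and 5 with vegetative libraries alone (main 10). Leaving out 1 library gave 5 to 11 calls at pre2 (main 10) and 2 to 4 at post (main 4). Over all rows, counts of calls moved by over 1.5 times from 1237 to 1921 at pre2 in the floral fit, and from 1357 to 2691 at the secretory stage with only the libraries compared. They moved from 364 to 679 at post with only the libraries compared (656 in the floral fit). In stem EFN they moved from 2209 to 875 with only the libraries compared and to 826 without stem EFN libraries 2 and 3. Between the EFN they moved from 341 to 20 with only the libraries compared, 45 with vegetative libraries alone and 671 without library 3 of both. Leaving out 1 library brought them to 617 at the lowest for pre2, 833 for the secretory stage, 136 for post and 100 between the EFN.

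Same-numbered libraries did not deviate together (median r = -0.0122 over 63 pairs, from -0.255 to 0.189). For 6 of 21 libraries the mean r was higher to their own number than to the other numbers pooled. This gave no sign that the numbers pair the libraries, but it cannot show that they do not. The replicate block changed no limma call of LOC547648 or LOC100814291, with adjusted p = 0.146 and 0.164 at pre2 against pre1; for the difference between the transcripts, whose share of variation between stages was 55.3%, the permutation within numbers gave p = 0.026 (exact). That share ran from 51.2% to 67.0% on leaving out 1 library. Low leaf values, likely of a few reads, limit the precision of every fold of these transcripts against leaf.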
